A study of Mus musculus with 105 samples.

Results

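The comparison described here sets mRNA of metaphase II (MII) mouse oocytes that lack Btg4 against that of heterozygous oocytes. It uses 4 of the 105 samples of the series, namely 2 Btg4 KO and 2 Btg4 Het libraries of polyadenylated RNA made by Smart-seq2. Of the 20756 genes of the table, the 8865 with a mean of at least 1 FPKM (fragment counts scaled by transcript length and library size) over the 4 libraries were compared. The genes nearest to this limit were Ccng1 at 1.00018 FPKM inside it and Slc44a3 at 0.999554 FPKM outside it. All 4 libraries came from MII oocytes of females described as C57BL/6, at 8 or 5 weeks of age, injected with PMSG (5 IU) and hCG (5 IU), gonadotropins that drive follicle growth and ovulation. The controls carry the mutant allele in 1 copy, and no wild-type mRNA library stands in this table. The labels give neither the part of the gene that the mutation removes, nor the number of oocytes or females behind a library, and the spread that the p-values rest on may therefore be technical.

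During growth an oocyte stores a large stock of mRNA and then stops transcription. At meiotic maturation part of this stock is recruited to ribosomes, while another part loses its poly(A) tail and is degraded. BTG4 is a BTG/TOB family protein that appears in maturing oocytes and brings the CCR4-NOT deadenylase to mRNA, and without it maternal mRNAs are known to outlast maturation. Because libraries were made from polyadenylated RNA and FPKM express a share of a library, more molecules of an mRNA, longer tails on the same molecules and a loss of other RNA cannot be told apart in these values.

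In Het 8494 and 7959 genes reached 1 FPKM, and in KO 9151 and 8814. Read totals are not given, and the steps between low values put the depth of Het library 2, KO library 1 and KO library 2 at 1.04, 1.05 and 1.26 times that of Het library 1. These are the commonest ratios, at which only 9.1%, 16.0% and 10.4% of the low genes compared lay, so they are rough estimates. Over the tested genes, Spearman rho was 0.945 between the Het libraries, 0.957 between the KO libraries and 0.783 to 0.858 across genotypes. Levels lay at least 2-fold apart for 11.3% of genes between the Het libraries, for 6.11% between the KO libraries and for 26.3% to 39.2% across genotypes. All 14 oocyte markers were tested, and their summed level ran from 20141 to 23403 FPKM. Of 21 markers of cumulus and granulosa cells 6 were at 0 in all 4 libraries, among them Foxl2, Amh and Gja1, and 16 stayed under 1 FPKM in each. Their sum was 361 and 444 FPKM in Het and 274 and 314 FPKM in KO. Most of it was Serpine2, at 342 and 427 FPKM in Het and 257 and 299 FPKM in KO. Cyp19a1 measured 13.2 and 12.7 FPKM in Het and 7.36 and 7.65 FPKM in KO. Of 9 ovarian stroma and endothelium markers 8 stayed under 1 FPKM in each library. The exception was Pecam1, at 18.0 and 14.9 FPKM in Het and 9.51 and 7.31 FPKM in KO. Of 11 blood and immune markers 7 stayed under 1 FPKM, but Lyz2, Tyrobp and Fcer1g stood at 14.6, 1.79 and 2.34 FPKM in KO library 1 and at 0 in the other libraries. Krt8, in the cumulus and granulosa list, measured 0.830 and 0.522 FPKM in Het and 2.23 and 2.38 FPKM in KO.

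Btg4 itself measured 3293 and 4774 FPKM in Het and 1754 and 2345 FPKM in KO. Both KO libraries lay below both Het libraries, yet the message was present in each of them. With a log2 change of -0.97 (SE 0.35) it did not pass the threshold of 0.05 (adjusted p = 0.0889 in limma). It did pass with a term for the replicate number that Het and KO libraries share (adjusted p = 0.00812 in limma). With 1 library left out in turn the log2 change ran from -1.23 to -0.70. Since the deleted part is not given, mRNA reads outside it check nothing. Ribosome footprints on Btg4 measured 7009, 6346 and 6134 FPKM in 3 Het libraries and 1148, 971 and 907 FPKM in 3 KO libraries. These groups lay far apart. The footprint log2 change of -2.69 (SE 0.23) passed in limma with an adjusted p of 0.00654, a call lost without any 1 of the KO footprint libraries.

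As deposited, and without a term for replicate number, loss of Btg4 went with higher levels of many mRNAs and called falls of few. Of the 8865 genes 1677 rose in KO, which is 18.9% of those tested, and 55 fell, which is 0.62% (limma on log2(FPKM + 1), adjusted p below 0.05). Of all tested genes 38.9% had both KO libraries above both Het libraries and 22.0% had both below. Among the rises 1667 were at least 2-fold, 614 at least 4-fold, 168 at least 8-fold and 12 at least 32-fold on this scale. Of the 55 falls 47 were at least 2-fold and 2 at least 4-fold. The risen genes were mostly of low level in Het, with a median of 4.05 FPKM there and 21.0 FPKM in KO. Of them 342 (20.4%) had a Het mean under 1 FPKM, against 7.30% of all tested genes. Such genes reached the mean of 1 FPKM only through KO. Together the risen genes held 6.84% and 7.69% of all FPKM in the Het libraries and 26.0% and 29.7% in the KO libraries. The fallen genes had a median of 68.5 FPKM in Het and held 2.32% and 2.00% of FPKM in Het against 0.999% and 0.915% in KO. Without KO library 1, which held the immune transcripts, 1270 genes rose and 94 fell, and the falls numbered 34, 270 and 22 without Het library 1, Het library 2 and KO library 2. The split of 96.8% higher among the calls became 61.3% with quantile normalization (1104 higher and 698 lower), and without a filter on low values 555 genes rose and 5 fell. With a term for the replicate number that Het and KO libraries share, 3033 genes rose and 1553 fell (66.1% higher). Whether same-numbered libraries are pairs is not known, so the number of falls is not settled.

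**Figure D1:**
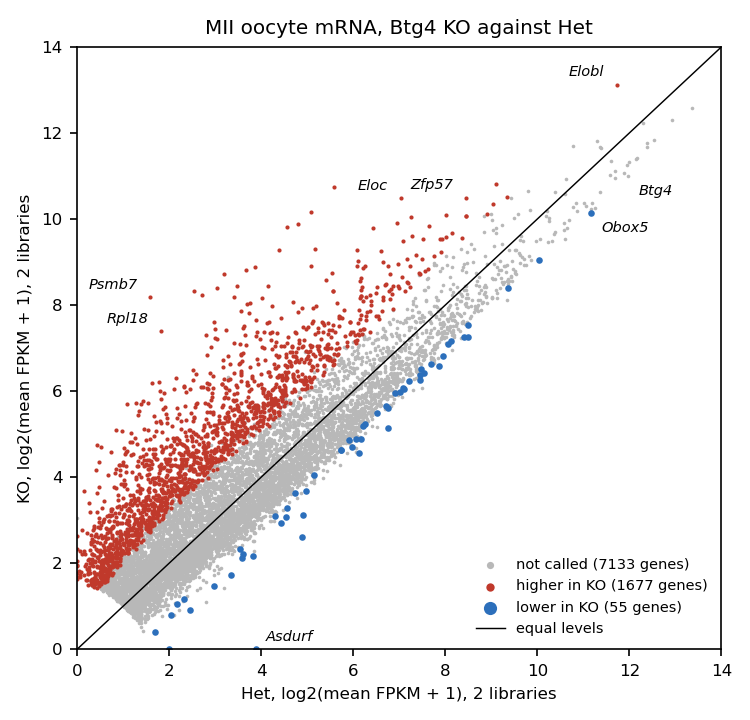
Each point is a tested gene, with log2(mean FPKM + 1) of the 2 Het libraries on the horizontal axis and of the 2 KO libraries on the vertical axis. The 1677 rises (red) lie above the line of equal levels at all Het levels, whereas most of the 55 falls (blue) lie close below it, with Asdurf at 0 in KO.

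Genes were then split by mean level over the 4 libraries into 5 equal groups. The share that rose went from 13.2% in the lowest group (1.00 to 2.56 FPKM) to 22.9% in the highest (39.6 to 8324 FPKM). The number that fell was 4, 4, 7, 9 and 31 from the lowest to the highest group. The median change ran the other way, from 0.23 in the lowest group to -0.06 in the highest. The highest group held both the most rises and the most falls, around a centre near 0. As this mean includes the KO libraries, a rise itself moves a gene to a higher group. These shares therefore do not describe how rises depend on the level in Het.

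The largest rises were of messages at a low or moderate level in Het. Psmb7, a catalytic subunit gene of the proteasome, measured 2.16 and 1.83 FPKM in Het and 307 and 275 FPKM in KO. The gap between genotypes was far wider than that between libraries of a genotype, with a log2 change of 6.60 (SE 0.31, adjusted p = 0.000123). Cyb5a, which encodes the electron carrier cytochrome b5, measured 15.9 and 11.2 FPKM against 452 and 488 FPKM, a log2 rise of 5.03 with an SE of 0.31 (adjusted p = 0.000191). Calm2, a calmodulin gene, measured 22.2 and 31.7 FPKM in Het and 609 and 1276 FPKM in KO. Its 2 KO libraries lay about 2-fold apart, but both stood well above Het (log2 change 5.00, SE 0.40, adjusted p = 0.00039). Paip2, an inhibitor of the poly(A)-binding protein PABPC1, measured 26.2 and 13.7 FPKM against 552 and 690 FPKM (log2 change 4.95, SE 0.36, adjusted p = 0.000283). Cd9, the egg surface tetraspanin needed for sperm fusion, measured 6.31 and 7.37 FPKM against 180 and 209 FPKM (log2 change 4.64, SE 0.30, adjusted p = 0.000225). Pdcd2, a chaperone gene for the ribosomal protein uS5, measured 1.22 and 1.02 FPKM against 56.5 and 45.7 FPKM (log2 change 4.61). These genes were picked among those whose groups did not overlap, which held for all 1677 rises and so does not set them apart.

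For 12 genes the change was from under 1 FPKM in both Het libraries to over 10 FPKM in both KO libraries. Fen1, the flap endonuclease of DNA replication, measured 0.325 and 0.345 FPKM in Het and 19.5 and 14.5 FPKM in KO. Acyp1, an acylphosphatase gene, measured 0.746 and 0.849 FPKM against 24.9 and 41.0 FPKM. Ccl2, a chemokine gene, measured 0.528 and 0.156 FPKM against 15.1 and 36.3 FPKM. Each of these 3 rose (adjusted p = 0.000573, 0.000573 and 0.00094 in limma), as did all 12. The 12 were picked by these values and reached the mean of 1 FPKM only through KO, so their calls are no separate support. Others among the 12 were Fam162b, Dynlt1c, Bola2, Mrpl27, Nudcd2, Ndufb10, Adora2b and Hint3. The reverse pattern was seen for 1 gene, Asdurf, at 16.3 and 11.1 FPKM in Het and under 0.001 FPKM in KO. Asdurf shares its transcript with Asnsd1, so how fragments were split between these overlapping genes is uncertain. Asnsd1 was called higher in KO (log2 change 1.75, adjusted p = 0.0132 in limma), a call lost without a filter on low values.

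**Figure D2:**
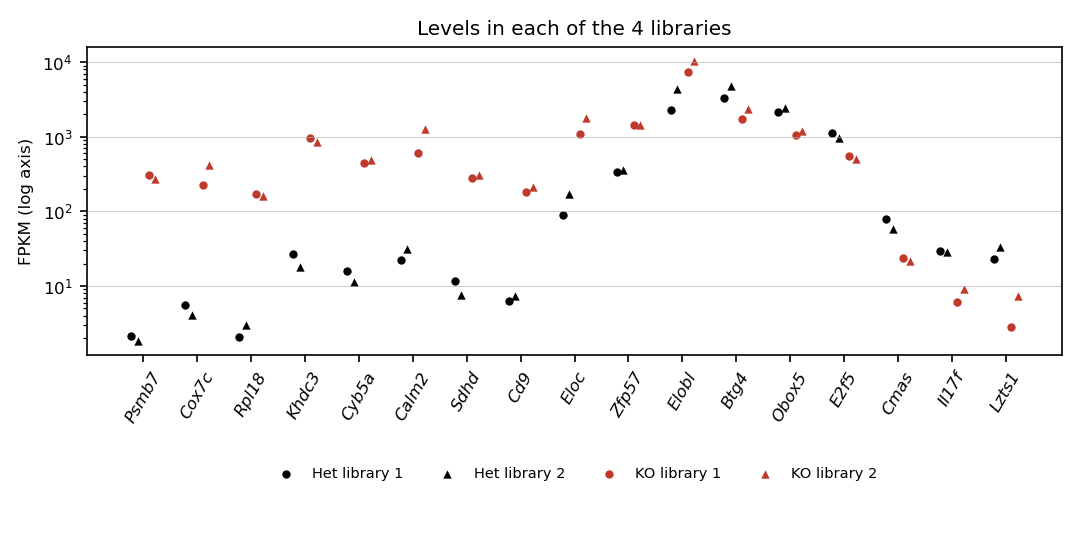
FPKM on a log axis for 17 genes in Het library 1 and 2 (black) and KO library 1 and 2 (red). Psmb7 stands at 2.16 and 1.83 FPKM in Het and at 307 and 275 FPKM in KO, whereas Obox5 and E2f5 lie about 2-fold lower in KO.

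By amount of FPKM gained, other genes led. Elobl, an oocyte relative of the Elongin B gene, measured 2321 and 4433 FPKM in Het and 7487 and 10374 FPKM in KO, where it was the most abundant message of library 2. Its log2 change of 1.46 had an adjusted p of 0.038, and the call was lost without Het library 1, KO library 1 or KO library 2 (adjusted p = 0.0808, 0.0851 and 0.23) and with median scaling. Eloc, the Elongin C gene, measured 90.4 and 169 FPKM against 1107 and 1771 FPKM, and rose by 3.49 (SE 0.39, adjusted p = 0.00097). Fbxw15 and Fbxw18 belong to an oocyte F-box gene cluster, whose products recruit substrates to ubiquitin ligases. Fbxw15 measured 132 and 171 FPKM against 920 and 1190 FPKM, and rose by 2.79 (adjusted p = 0.00094). Fbxw18 measured 427 and 665 FPKM against 1547 and 2031 FPKM, and rose by 1.73 (adjusted p = 0.00995), a call lost with median scaling. Genes of this cluster resemble each other, and reads may have been divided wrongly among them. Zfp57, a maternal zinc finger protein that protects imprints, measured 342 and 357 FPKM against 1441 and 1447 FPKM, and rose by 2.04 (adjusted p = 0.0024).

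Ribosomal protein genes rose in most cases. Of 50 tested large subunit genes 33 rose, against 18.9% rising among all genes, with a median log2 change of 1.69 where that of all genes was 0.14. All but 6 of the 50 had both KO libraries above both Het libraries. Of 31 small subunit genes 22 rose, with a median of 1.58. Rpl39 measured 4.17 and 5.33 FPKM in Het and 62.6 and 88.1 FPKM in KO, and rose by 3.72 (SE 0.34, adjusted p = 0.000573). Members ranged widely. Rplp0 measured 40.9 and 35.3 FPKM in Het and 36.8 and 34.9 FPKM in KO, and its groups overlapped. Rpl26 was listed under 0.001 FPKM in library 1 of both genotypes and at 16.2 and 3.37 FPKM in library 2 of Het and of KO, so that its change differs in sign between single libraries and no direction is given. The 53 listed large subunit genes together held 0.216% and 0.245% of FPKM in Het and 0.729% and 0.840% in KO. Ribosomal protein genes have many processed copies, and how the authors' counting treated reads shared with these is not given.

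Many ribosomal protein mRNAs begin with a terminal oligopyrimidine (TOP) motif, a C followed by a run of C or T, through which their translation is regulated. RefSeq start sites on GRCm38.p6 were found for 62 of the tested ribosomal protein genes, and the first listed start of each was read. With a motif of C followed by 4 pyrimidines at the first base, 14 genes had a TOP start and 9 of them rose (64.3%, median log2 change 1.54), while of 48 without it 33 rose (68.8%, median 1.65). Among 27025 RefSeq promoters 2.49% start in this way. The 4 risen genes of each kind with the largest change are shown from 25 bases before to 5 bases after the start, with the first 5 transcribed bases in capitals. Those with a TOP start follow.
Rps10: aagagacgctgcgccgcgcacgcccCTTCC
Rpl28: aggtgtcgtcccgcctctcgtgtctCTCTT
Rps18: ataagacttatacgtcacttccgctCTCTC
Rps21: cggaagcacttaccgaggacccgccCTCCT
Those without it follow.
Rpl18: gcgtcacgagtgcgtctcgcaggccGCTCT
Rpl5: agccactctttctcacgtcgcttgcGTGCT
Rps13: gcccccgcgcgagagcaaacgtcggTGAGT
Rpl39: tccatccccccctaagctccgcctcTAGCG
These windows lie at chr17:27635240-27635269 (minus strand) for Rps10, chr7:4792940-4792969 (plus) for Rpl28, chr17:33955661-33955690 (minus) for Rps18 and chr2:180257354-180257383 (plus) for Rps21. Those of Rpl18, Rpl5, Rps13 and Rpl39 lie at chr7:45718046-45718075 (plus), chr5:107900503-107900532 (plus), chr7:116334186-116334215 (minus) and chrX:37085218-37085247 (minus). Rps10, with a TOP start, measured 9.07 and 12.3 FPKM in Het and 86.2 and 113 FPKM in KO (log2 change 3.11, adjusted p = 0.000881). Rpl18, without it at the listed start, measured 2.07 and 2.97 FPKM against 170 and 163 FPKM (log2 change 5.58, adjusted p = 0.000173). Annotated starts can lie some bases from the start used in oocytes, so a missing motif says only that these letters are not at the listed position.

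Nuclear genes for the respiratory chain were often called higher. Of 39 tested complex I genes, which encode subunits and assembly factors of the NADH dehydrogenase, 29 rose, with a median log2 change of 1.98, the highest of the 45 lists. Of 13 genes of complexes II and III 6 rose (median 1.45). Sdhd, which anchors succinate dehydrogenase in the membrane, measured 11.7 and 7.50 FPKM against 279 and 304 FPKM, and rose by 4.81 (SE 0.32, adjusted p = 0.000225). Of 19 complex IV genes 13 rose (median 1.25), 6 without KO library 2 and 8 with median scaling. Cox7c, a small structural subunit of the oxidase, measured 5.60 and 4.08 FPKM against 223 and 415 FPKM, and rose by 5.72 (SE 0.38, adjusted p = 0.000225). Of 18 ATP synthase genes 11 rose (median 1.65), and 7 without KO library 2. Atp5j measured 3.45 and 1.64 FPKM against 28.5 and 45.4 FPKM, and rose by 3.43.

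Genes that make and import mitochondrial proteins were called higher in part. Of 72 mitochondrial ribosomal protein genes 38 rose (median 1.26), a count of 21 without KO library 2 and of 24 with median scaling or quantile normalization. Mrpl39 measured 2.57 and 5.48 FPKM in Het and 62.2 and 72.8 FPKM in KO, and rose by 3.83 (SE 0.38, adjusted p = 0.000779). Of 21 import genes 11 rose (median 1.15). Tomm22, a receptor of the outer membrane translocase, measured 9.26 and 13.3 FPKM and then 180 FPKM in both KO libraries, and rose by 3.90 (SE 0.31, adjusted p = 0.000392). Timm9, a chaperone of the intermembrane space, measured 32.0 and 34.0 FPKM against 424 and 531 FPKM, and rose by 3.81 (adjusted p = 0.000312). Of 31 peroxiredoxin, thioredoxin and glutathione genes 13 rose (median 1.12), and 6 without KO library 2. Prdx3, the mitochondrial peroxiredoxin, measured 4.74 and 2.17 FPKM against 83.1 and 72.8 FPKM, and rose by 4.21 (adjusted p = 0.000573). Of 27 glycolysis and TCA cycle genes 10 rose (median 0.78), with the malate dehydrogenase gene Mdh2 at 1.31 and 1.21 FPKM against 27.8 and 35.5 FPKM.

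Many proteasome genes rose, in the core and in the regulatory particle. Of 14 core subunit genes 9 rose (median 1.53), and of 29 genes for regulatory and assembly subunits 17 rose (median 1.47), 11 without KO library 2. Over the 306 tested genes of the ribosomal, respiratory, import and proteasome lists 189 rose and 0 fell in limma, and 5 had a lower level at an unadjusted p under 0.05. Sem1, a small lid subunit gene, measured 49.0 and 84.8 FPKM in Het and 528 and 709 FPKM in KO, and rose by 3.23 (SE 0.35, adjusted p = 0.000923). Upstream of the proteasome, 12 of 32 genes of the ubiquitin-conjugating E2 enzymes rose (7 with quantile normalization), with a median of 0.46. Ube2a and Ube2b, paralogs that act in DNA damage tolerance, rose together. Ube2a measured 18.6 and 8.89 FPKM against 144 and 165 FPKM (log2 change 3.48, adjusted p = 0.000923). Ube2b measured 7.00 and 9.12 FPKM against 69.2 and 83.5 FPKM (log2 change 3.10, adjusted p = 0.000873).

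Other groups of the gene expression and protein folding machinery were called in part. Of 13 chaperonin and prefoldin genes 7 rose (median 1.45), and 4 without KO library 2. Cct5, a subunit of the cytosolic chaperonin, measured 27.4 and 25.9 FPKM in Het and 215 and 240 FPKM in KO, and rose by 3.04 (SE 0.29, adjusted p = 0.000577). Of 51 heat shock and DNAJ genes 13 rose (median 0.24), and 8 with quantile normalization. Hspa8, the constitutive HSC70, measured 37.0 and 54.3 FPKM against 433 and 428 FPKM, and rose by 3.23 (adjusted p = 0.000623). Of 22 aminoacyl-tRNA synthetase genes 6 rose (median 0.64), with the arginine enzyme gene Rars at 9.69 and 11.9 FPKM against 108 and 117 FPKM. Of 15 elongation and release factor genes 5 rose (median 0.63), and of 48 initiation factor genes 11 rose (median 0.14, equal to that of all genes). Eif3m, an eIF3 subunit gene, measured 16.4 and 11.4 FPKM against 152 and 180 FPKM, and rose by 3.50 (adjusted p = 0.000573). Of 24 RNA polymerase subunit genes 6 rose (median 0.59), with Polr2k at 13.0 and 20.0 FPKM against 151 and 232 FPKM. Of 32 snRNP and LSM genes 11 rose (median 0.54), but 5 with median scaling and 7 with quantile normalization. Snrpc, the U1 snRNP protein C gene, measured 10.2 and 5.88 FPKM against 96.2 and 114 FPKM, and rose by 3.59 (adjusted p = 0.000693).

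In groups of regulatory, transport and motor proteins the share that rose ran from 5.56% to 32.1%, on both sides of the 18.9% of all genes. Of 28 genes of the signal recognition particle, translocon and oligosaccharyltransferase 9 rose (median 0.43), and of 17 vacuolar ATPase genes 4 rose (median 0.35). Atp6v1e1 measured 16.0 and 21.5 FPKM in Het and 115 and 149 FPKM in KO, and rose by 2.75 (SE 0.32, adjusted p = 0.00114). Of 39 Rab GTPase genes 6 rose (median 0.23), and 3 without either KO library. Of 36 general transcription factor genes 8 rose (median 0.19). Of 195 Zfp genes 18 rose and 1 fell (median 0.18), and 9 rose without KO library 1. Of 54 chromatin regulator genes 3 rose and 1 fell (median -0.25). Kat8, the MOF histone acetyltransferase, measured 5.90 and 6.76 FPKM against 37.1 and 52.5 FPKM, and rose by 2.62 (adjusted p = 0.00181). Of 23 nuclear pore genes 2 rose (median -0.28), of 24 kinesin genes 3 rose (median -0.21) and of 29 SR and hnRNP splicing factor genes 4 rose and 2 fell (median -0.10). The nuclear pore count was 1 without any 1 of the libraries, the kinesin count 1 without Het library 2 or either KO library, and the splicing factor count 1 and 2 without KO library 1 and KO library 2. The list medians of initiation factors, heat shock genes, general transcription factors, Zfp genes, Rab GTPases, CCR4-NOT subunits, storage factors and checkpoint genes lay above 0 as deposited and below 0 with quantile normalization, so no direction is given for these lists.

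**Figure D3:**
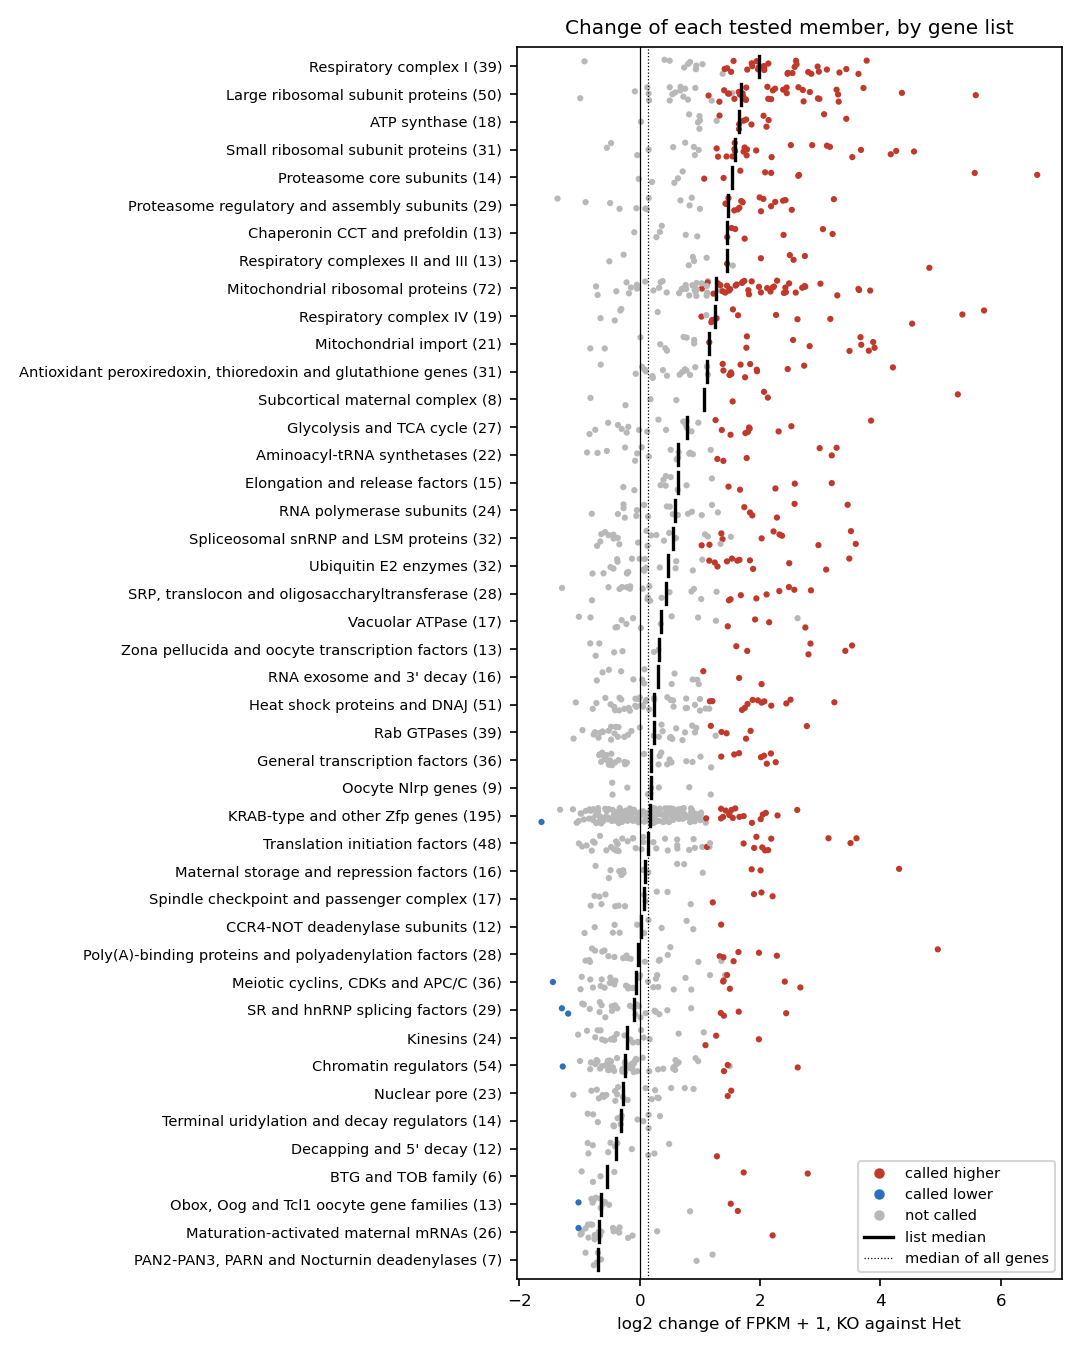
Each point is a tested member of a list, placed by its log2 change of FPKM + 1 in KO against Het, with the list median as a black bar and the number tested in parentheses. Complex I (median 1.98) and the ribosomal lists (1.69 and 1.58) lie at the top, and maturation-activated mRNAs (median -0.69) near the bottom, with few falls (blue) in any list.

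In the lists of mRNA decay genes, to which Btg4 belongs, 0% to 33.3% of tested members rose, where 18.9% of all genes did. Of 6 BTG and TOB family genes 2 rose. Tob1 measured 1.41 and 0.714 FPKM in Het and 15.5 and 11.0 FPKM in KO, and rose by 2.79 (SE 0.38, adjusted p = 0.00216). Btg2 measured 3.39 and 3.48 FPKM against 20.2 and 9.15 FPKM, and rose by 1.73 (adjusted p = 0.0251), a call lost without KO library 1 (adjusted p = 0.198). Both encode adaptors of the same deadenylase, expressed in many tissues. Btg1 measured 12.9 and 12.7 FPKM against 8.25 and 7.32 FPKM, and did not pass (log2 change -0.65, adjusted p = 0.212). Of 12 CCR4-NOT subunit genes 1 rose, with a list median of 0.01. This was Cnot9, which measured 10.7 and 11.4 FPKM against 31.7 and 27.8 FPKM (log2 change 1.35, adjusted p = 0.0202), a call lost without either KO library (adjusted p = 0.128 and 0.0898). The catalytic subunit genes Cnot7 and Cnot8 had log2 changes of -0.75 and -0.92 (adjusted p = 0.111 and 0.119). Cnot6l, the other catalytic subunit studied in this series, measured 59.2 and 33.3 FPKM against 41.1 and 29.7 FPKM, and the groups overlapped.

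In the other decay lists the share that rose ran from 0% to 25.0%, on both sides of the 18.9% of all genes. Of 7 genes of the PAN2-PAN3, PARN and Nocturnin deadenylases 0 rose and 0 fell in limma, 3 had an unadjusted p under 0.05, and the median was -0.69. Without Het library 1 the list held 1 rise. The lowest adjusted p in this list was that of Pde12, a mitochondrial deadenylase gene, at 2.72 and 1.17 FPKM in Het and 6.96 and 4.42 FPKM in KO (log2 change 1.21, adjusted p = 0.0739). Of 14 uridylation and decay regulator genes 0 passed in limma, and 0 had an unadjusted p under 0.05. Of 12 decapping genes 1 rose, Patl2, an oocyte translational repressor gene, at 8.47 and 7.53 FPKM against 22.0 and 19.7 FPKM. Its adjusted p of 0.0283 became 0.085, 0.172 and 0.141 without Het library 2, KO library 1 and KO library 2. Of 16 exosome genes 3 rose, and 1 without KO library 1, with Exosc6 at 0.536 and 0.581 FPKM against 3.93 and 7.16 FPKM (adjusted p = 0.00645). Of 28 genes of poly(A)-binding proteins and polyadenylation factors 7 rose, and 3 without KO library 1. Besides Paip2 these include Cpsf4, a subunit gene of the cleavage and polyadenylation complex, at 4.34 and 3.93 FPKM against 21.8 and 17.0 FPKM (log2 change 1.98, adjusted p = 0.00628).

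Oocyte genes were divided. Of 13 zona pellucida and oocyte transcription factor genes 6 rose. Zp3, a zona glycoprotein gene, measured 66.1 and 103 FPKM in Het and 858 and 924 FPKM in KO, and rose by 3.42 (SE 0.32, adjusted p = 0.000573). Figla, the factor that switches on the zona genes, measured 3.28 and 1.69 FPKM against 32.7 and 44.5 FPKM, and rose by 3.53 (adjusted p = 0.000923). Nobox measured 35.9 and 31.6 FPKM against 263 and 221 FPKM, and rose by 2.80 (adjusted p = 0.000873). The secreted growth factor genes of the same list did not pass. Gdf9 measured 3150 and 3094 FPKM against 3183 and 2055 FPKM, and Bmp15 measured 1361 and 1323 FPKM against 1764 and 1414 FPKM. These abundant messages held the list at 2.41% and 2.09% of FPKM in Het and 2.25% and 1.78% in KO.

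The subcortical maternal complex, a protein assembly under the egg membrane needed for the first cleavages, showed the same split. Of its 8 genes 4 rose. Khdc3 measured 26.9 and 18.3 FPKM in Het and 964 and 845 FPKM in KO, and rose by 5.29 (SE 0.31, adjusted p = 0.000173). Tle6 measured 92.3 and 49.4 FPKM against 365 and 223 FPKM, and rose by 2.06 (adjusted p = 0.0088). Zbed3, the most abundant message of both Het libraries, measured 11470 and 9595 FPKM against 7557 and 4674 FPKM, and did not pass (log2 change -0.82, adjusted p = 0.16). Of 16 storage and repression factor genes 3 rose (median 0.08), a share near the 18.9% of all genes. Zar1l led them, at 20.2 and 13.4 FPKM against 318 and 375 FPKM (log2 change 4.31, adjusted p = 0.000283 in limma). Of 9 other oocyte Nlrp genes 0 passed in limma and 2 had an unadjusted p under 0.05, while 1 rose without Het library 1.

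Messages that are recruited to ribosomes during maturation had a list median below 0, though hardly any member passed the test. Of 26 maturation-activated mRNAs 1 rose and 1 fell, with a median of -0.69 (relative to that of all genes -0.82, and -0.38 with quantile normalization), and 17 had both KO libraries below both Het libraries where 22.0% of all genes did. Obox5, an oocyte homeobox gene, measured 2162 and 2423 FPKM in Het and 1062 and 1202 FPKM in KO (log2 change -1.02, adjusted p = 0.0473). Its call was lost without Het library 2, KO library 1 or KO library 2 (adjusted p = 0.0888, 0.347 and 0.248). Rad51c, a recombination gene, went against the list, at 3.05 and 3.31 FPKM against 18.4 and 18.2 FPKM (log2 change 2.21, adjusted p = 0.00358). The list held 7.25% and 8.55% of FPKM in Het and 4.38% and 4.66% in KO. Of 13 genes of the Obox, Oog and Tcl1 families 2 rose and 1 fell (median -0.65), and the 2 rises, Oog2 and Oog4, were lost with median scaling. Members of these families also resemble each other, with the same doubt about shared reads. As shares of FPKM sum to a fixed total in each library, a list can lose share while its molecules stay, and this cannot be told apart here.

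**Figure D4:**
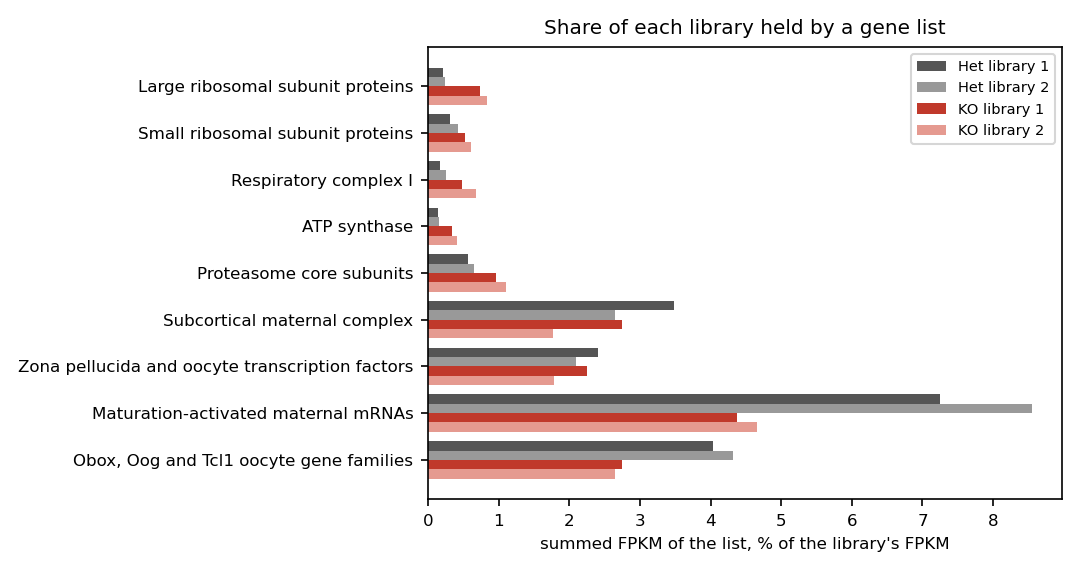
Bars give the summed FPKM of a list as a percentage of the library's FPKM, for the 2 Het (grey) and 2 KO (red) libraries. The large ribosomal subunit list goes from 0.216% and 0.245% to 0.729% and 0.840%, and maturation-activated mRNAs from 7.25% and 8.55% to 4.38% and 4.66%.

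Of the cyclin, CDK and APC/C list 16.7% rose and of the checkpoint and passenger complex list 23.5%, near the 18.9% of all genes. Of 36 cyclin, CDK and APC/C genes 6 rose and 1 fell (median -0.06), with 3 rises under median or quantile scaling. Cdc25c, the phosphatase gene that activates Cdk1, measured 0.734 and 0.214 FPKM in Het and 7.84 and 5.72 FPKM in KO (log2 change 2.41, adjusted p = 0.00295). Cdk1 measured 0.486 and 0.559 FPKM against 3.72 and 2.67 FPKM (log2 change 1.45, adjusted p = 0.0131). Ccnd3, a cyclin D gene, fell, from 26.0 and 18.2 FPKM to 8.33 and 6.49 FPKM (log2 change -1.44, adjusted p = 0.0243), a call lost without Het library 1 or KO library 2 (adjusted p = 0.102 and 0.15). Of 17 checkpoint and passenger complex genes 4 rose, and 2 without KO library 1. Birc5, which encodes survivin, measured 175 and 186 FPKM against 651 and 834 FPKM (log2 change 2.02, adjusted p = 0.00288). Bub1, a checkpoint kinase gene, measured 6.25 and 10.2 FPKM against 43.7 and 37.9 FPKM (log2 change 2.21, adjusted p = 0.00413).

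The number of falls depended on the scaling, the term for replicate number and the libraries used, as given above. The falls with the largest change or loss are described here. Lzts1 measured 23.3 and 33.6 FPKM in Het and 2.86 and 7.25 FPKM in KO (log2 change -2.36, SE 0.44, adjusted p = 0.00804). Il17f, a cytokine gene, measured 29.5 and 28.6 FPKM against 6.18 and 9.15 FPKM (log2 change -1.82, adjusted p = 0.00847). Cmas, which activates sialic acid, measured 79.5 and 57.5 FPKM against 23.8 and 21.5 FPKM (log2 change -1.54, adjusted p = 0.0119). These 3 genes kept the sign of their change without any 1 of the libraries. Their calls were lost without a filter on low values (adjusted p = 0.0751, 0.052 and 0.0575 in limma). By amount of FPKM lost, E2f5 followed Obox5. E2f5, a repressor of the E2F family, measured 1126 and 969 FPKM against 556 and 497 FPKM (log2 change -0.99, adjusted p = 0.0479), and did not pass without Het library 1, KO library 1 or KO library 2 (adjusted p = 0.134, 0.211 and 0.355). Dbf4, the activator of the replication kinase CDC7, measured 411 and 307 FPKM against 141 and 161 FPKM (log2 change -1.23, adjusted p = 0.0229), and did not pass without the same libraries (adjusted p = 0.0792, 0.132 and 0.0788). Atrx, a chromatin remodeler gene, measured 80.8 and 60.9 FPKM against 34.0 and 23.5 FPKM (log2 change -1.28, adjusted p = 0.029), lost without Het library 1 or KO library 2 (adjusted p = 0.0957 and 0.236).

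The mRNA calls were next set beside measures that did not enter the mRNA test. Ribosome footprints of single wild-type oocytes, 18 at the full-grown stage (FGO) and 20 at MII, give for each gene a log2 ratio of mean levels between the stages. This ratio was known for 7739 tested genes and had a median of -0.13. Its median was -1.22 for 1508 risen genes, -1.60 for rises of at least 8-fold, 0.22 for genes that were not called and 1.79 for 52 fallen genes. Footprints were lower in MII than in FGO for 82.5% of risen and 13.5% of fallen genes, against 52.4% of all. Of 778 genes whose footprints fell at least 4-fold during wild-type maturation 49.1% rose in KO mRNA and 0.257% fell. Of 1145 genes whose footprints rose at least 4-fold 1.66% rose in KO mRNA and 2.01% fell. Across genes Spearman rho between this ratio and the mRNA change was -0.56 (n = 7739 genes, which are not independent replicates). Testing needed a mean of 1 FPKM over Het and KO together. Of the 1677 risen genes 342 had a Het mean under 1 FPKM. Genes low in both genotypes were left out, which can raise the share that rose among genes whose footprints fell, and can bear on rho. The size of this effect was not tested.

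**Figure D5:**
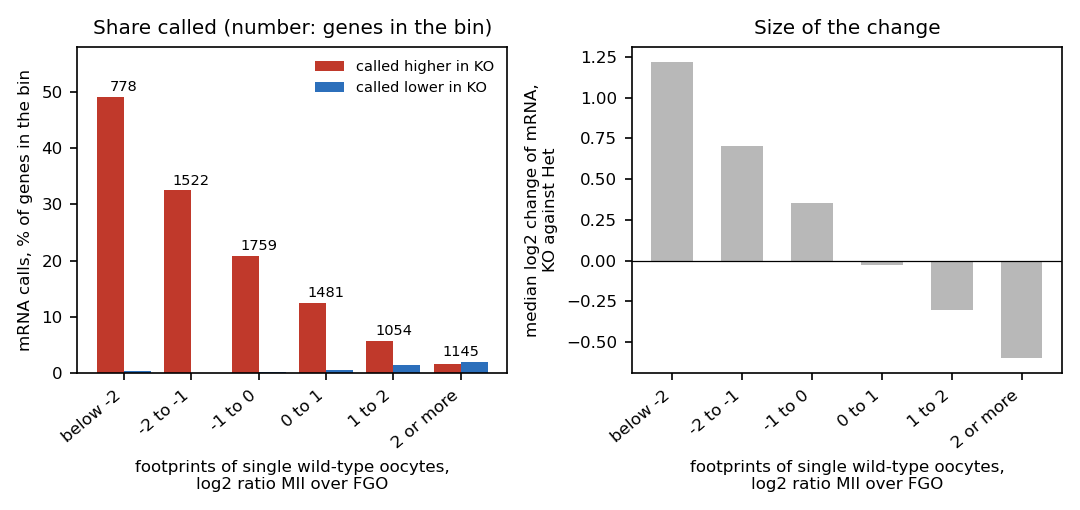
Tested genes are grouped by the log2 ratio of wild-type footprints in MII over FGO. The left panel gives the percentage called higher (red) or lower (blue) in KO mRNA with the number of genes above, and the right panel the median log2 change. The share that rose goes from 49.1% in the lowest group to 1.66% in the highest, and the median change from 1.22 to -0.60.

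Across the lists the pattern was less even. The median wild-type footprint ratio was -2.08 and -2.40 for large and small ribosomal subunit genes, -1.82 for complex I, -2.29 for ATP synthase and -1.38 for the core proteasome. It was 0.71 for the nuclear pore, 1.01 for SR and hnRNP factors and 2.53 for the PAN2-PAN3 list, all of which had mRNA medians below 0 in KO. For maturation-activated mRNAs it was 5.45, but that list was drawn up with such ratios known and does not stand as separate evidence. Oocyte Nlrp genes (0.81) and initiation factors (-1.11) had mRNA medians near that of all genes, 0.18 and 0.14. Low ratios also went with small mRNA medians, as for the zona and oocyte transcription factor list (-2.09 and 0.31), vacuolar ATPase (-1.46 and 0.35) and storage factors (-1.24 and 0.08). For BTG and TOB genes (-0.47 and -0.54) and uridylation genes (-0.30 and -0.31) the ratio and the mRNA median were both below 0.

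Poly(A) tails were measured in 1 library of wild-type FGO. The median tail was 56.5 nt for 1206 risen genes, 45.5 nt for 38 fallen genes and 53.8 nt for all 5808 tested genes with a value. For the lists it was 58.6 and 63.9 nt for large and small ribosomal subunit genes and 68.0 nt for ATP synthase, against 41.9 nt for maturation-activated mRNAs and 41.7 nt for the Obox, Oog and Tcl1 list. At MII far fewer genes had a tail value. In the Het tail library 33 of the risen genes had one, against 224 and 363 in the KO tail libraries, while over all tested genes 584 had one in Het and 846 and 1382 in KO. The risen genes with a value had median tails of 46.6 nt in Het and of 31.5 and 33.1 nt in KO, but these medians are over different genes. Over all genes shared with Het, medians were 67.3 nt in Het and 53.1 nt in KO tail library 1 (308 genes), and 67.8 nt and 59.9 nt for KO tail library 2 (396 genes). The part of tail length in the capture of mRNA by the Smart-seq2 libraries was not tested.

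Ribosome footprints of the same genotypes (3 Het and 3 KO libraries) showed fewer changes, with 274 of 8526 genes higher (3.21%) and 28 lower (0.328%) in limma. Without any 1 of the KO footprint libraries 0 genes passed in limma, and 1199 to 1315 had an unadjusted p under 0.05, so the calls below rest on all 3. Without Het footprint library 1, 2 and 3 in turn 260, 144 and 82 genes rose and 14, 10 and 4 fell. Of the 7382 genes tested in both readouts 1365 had higher mRNA. Of these 1365 genes 100 (7.33%) rose in footprints and 6 (0.440%) fell, where 3.66% and 0.366% of the 7382 did. The 100 are 36.5% of the 274 footprint rises, of which 270 were also tested in mRNA. Of 5963 genes not called in mRNA 2.85% rose in footprints. Spearman rho between the mRNA change and the footprint change was 0.19 over the 7382 genes. The footprint change was above 0 for 66.6% of genes with higher mRNA and for 58.3% of all. The median footprint change was 0.89 for genes with higher mRNA, 1.71 for those with rises of at least 8-fold, -0.43 for those with lower mRNA and 0.26 for all. Of 54 genes with lower mRNA 0 rose and 0 fell in footprints in limma, and 4 were higher and 5 lower at an unadjusted p under 0.05. Paip2 rose in both readouts, by 4.95 in mRNA and 4.89 in footprints (adjusted p = 0.00654 for the latter). Cd9 also rose in footprints, by 4.34 (adjusted p = 0.0181). Psmb7, with the largest mRNA rise, had a footprint change of 1.13 (adjusted p = 0.384 in limma). Kat8 and Cct5, called higher in mRNA, had footprint changes of -2.76 and -1.42 (adjusted p = 0.25 and 0.302 in limma). Of 51 large and 32 small ribosomal subunit genes tested in footprints 0 rose in limma, with 3 and 2 higher at an unadjusted p under 0.05 and medians of 1.26 and 1.40.

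Gene structure also differed between the groups. The median span from first to last annotated base on GRCm38.p6 was 14.1 kb for risen genes, 9.90 kb for rises of at least 8-fold, 21.6 kb for fallen genes and 26.2 kb for all. Of 977 genes under 5 kb 34.7% rose and of 1299 genes of at least 100 kb 6.70% rose. Since many ribosomal, respiratory and proteasome genes are short, span and gene group overlap. Between chromosomes the share that rose ran from 13.9% to 22.7% of tested genes.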

How the data were processed

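FPKM values per gene were deposited by the authors for mRNA and footprints, and mean poly(A) tail values per gene in nucleotides were deposited in a further table. STAR 2.5.3a, Cufflinks 2.2.1, Bowtie2 2.2.2, cutadapt 1.14 and Trim Galore 0.4.2 are named in the submitters' processing notes, as are mm9 and hg19, without roles. No spike-in is named, so FPKM carry no absolute scale, and read depth is unknown. In all 231 exact repeats were dropped from the Btg4 values, and the authors' average columns were not used. Genes needed a mean of 1 FPKM over the libraries of the fit. KO against Het was tested with limma (version 3.58.1, R 4.3.3; lmFit and trended eBayes, two-sided) on log2(FPKM + 1), with Benjamini-Hochberg adjusted p below 0.05 over all tested genes as the threshold; a gene past it is called higher or lower. A pseudocount of 1 understates changes of low genes. The fit was tested on simulated data. The same fit was used for footprints. Single oocytes of a stage have no animals named, so their ratios, log2(mean FPKM + 1) in MII less FGO for genes at 1 FPKM in either stage, were not tested. Promoters and spans came from RefSeq (GRCm38.p6), matched by symbol.

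The genes and the 45 lists were chosen with earlier results of these data known. Lists defined by symbol hold all members with that prefix. Named genes are Btg4, and among called genes whose groups do not overlap and whose higher group mean is at least 10 FPKM the 20 largest rises and 10 largest falls, the 10 largest FPKM gains and losses, and per list up to 4 called members with the largest change, or the lowest p. Other genes named were chosen after their values were seen, and some genes are not reported here. Alternatives were a pseudocount of 0.1, no filter, a minimum mean of 5 FPKM, median scaling (libraries scaled to a common median ratio), quantile normalization, a replicate block, and each library left out in turn. Python 3.11.15 was used for the other steps.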

Additional observations from a re-analysis of the deposited data

How the results depend on the processing

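As deposited, 1677 genes rose and 55 fell in mRNA, with a median log2 change of all genes of 0.14. Scaling moved that median to -0.04 with median scaling and to -0.22 with quantile normalization, and the share of calls that were higher went from 96.8% to 88.3% and 61.3%. The list medians relative to that of all genes were 1.55, 1.53 and 1.51 for the large ribosomal subunit, 1.85, 1.88 and 1.86 for complex I, and -0.82, -0.87 and -0.38 for maturation-activated mRNAs under the 3 scalings in that order (as deposited first). Falls numbered 163 with median scaling. With quantile normalization 1104 rose and 698 fell, and without a filter on low values, which tests 15509 genes, 555 rose and 5 fell and the counts of 34 lists moved by over 1.5 times. Of 45 list medians 5 changed sign with median scaling and 8 with quantile normalization.

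With 1 library left out, 1139 to 1621 genes rose and 22 to 270 fell; the lone library is then assumed to vary like the others. Of the named genes, 54 of 70 rises and 1 of 9 falls kept their call under every alternative. That fall was Asdurf, for which the split of fragments with Asnsd1 is uncertain. Cnot6l, Gdf9, Rplp0 and Rpl26, which were not called, changed sign with 1 library left out, with log2 changes of -0.74 to 0.070, -0.60 to 0.028, -0.19 to 0.021 and -3.04 to 1.06, and Gdf9 also with quantile normalization (0.071). In footprints, 274 rises and 28 falls became 177 and 22 with a pseudocount of 0.1, 145 and 12 without a filter, 317 and 47 with median scaling, and 0 to 260 and 0 to 14 with 1 library left out.

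Het and KO libraries share replicate numbers, but with 2 pairs the numbers do not establish a pairing. The deviations of same-numbered libraries correlated at 0.63 across genes. Fitted with the replicate block, 3033 genes were higher and 1553 lower, Btg4 among the latter (adjusted p = 0.00812), and 241 and 26 in footprints. The cause of these differences was not tested. Read totals are unknown, so the limit that depth sets was not computed.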
